A study of Mus musculus with 8 samples.

Results

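Mouse primordial germ cells (PGCs), the embryonic precursors of eggs and sperm, carry a set of surface molecules by which they are fed, guided and recognised. A set of 10 such genes was chosen by name: the survival receptor Kit and its ligand Kitl, the homing receptor Cxcr4, the integrin subunits Itga6, Itgav, Itgb1 and Itgb3, the fucosyltransferase Fut4, the alkaline phosphatase Alpl and the tetraspanin Cd9. All 10 were found among the 21950 genes of the count table by their Entrez identifiers. They were compared between PGC-like cells made in culture (d6PGCLC, 4 libraries) and PGCs of the embryonic gonad (E12.5 PGC, 4 libraries).

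The d6PGCLCs came from BVSC-iPSC, a single female induced pluripotent line that carries the Blimp1-Venus and Stella-ECFP reporters. They were taken 6 days after the start of differentiation from epiblast-like cells, which is day 8 of the culture, and by their labels were sorted as positive for both reporters. The E12.5 PGCs came from gonads of female C57BL/6J fetuses and were sorted as positive for SSEA1 and integrin β3. Each library was a pool of sorted cells from an independent experiment, and the labels name no drug and no deleted gene. The medium of the d6PGCLCs at first held BMP4, stem cell factor, LIF and EGF and was later changed to one with stem cell factor, LIF and EGF but no BMP4, and the gonadal PGCs were not cultured. Developmental stage, genetic background, reporters, culture and sort all differ between the groups and cannot be told apart from the cell type.

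KIT is a receptor tyrosine kinase that KIT ligand, also called stem cell factor, activates, and germ cells that lose this signal die or fail to migrate. CXCR4 reads the chemokine CXCL12, which draws migrating PGCs to the genital ridge. Integrins are pairs of an α and a β chain that bind laminin, fibronectin and other matrix proteins. Several molecules of the set are used to sort PGCs: SSEA1 is a fucosylated sugar that FUT4 and FUT9 can complete, integrin β3 is the product of Itgb3, and tissue-nonspecific alkaline phosphatase, the product of Alpl, is the enzyme behind the classical histochemical stain. CD9 is a tetraspanin that associates with integrins and is needed on the egg for fusion with sperm.

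In d6PGCLCs 4 members were higher (Cd9, Itga6, Alpl and Cxcr4), 3 were lower (Fut4, Kitl and Itgb3) and 3 did not pass the test (Kit, Itgb1 and Itgav). Fut4 had the largest difference of the 10 and was 11.2-fold lower in d6PGCLCs, and Cd9 was 2.88-fold higher. The test was edgeR's quasi-likelihood test with Benjamini-Hochberg adjustment over all genes, and passing means an adjusted p of at most 0.05. All 10 members had a mean of at least 1 CPM over the 8 libraries, the read count scaled to a common library size with TMM factors. In d6PGCLCs alone 8 of 10 did, and Fut4 and Kitl reached that mean only through the PGCs, where they were higher, so the counts that follow describe the members and support nothing about them as a set. Of all genes tested 31.5% passed, and of the 11487 genes with a mean of at least 1 CPM 53.6% passed (28.1% as higher and 25.6% as lower), against 7 of 10 members. At the further threshold of 2 on the size of the log2 fold change, 1 of 10 members (Fut4) passed against a background of 7.24%. The groups were fully apart, all 4 libraries of one above all 4 of the other, for 5 of 10 members against 51.1% of these genes. The median log2 fold change was 0.07 over the members and 0.01 over these genes.

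**Figure D1:**
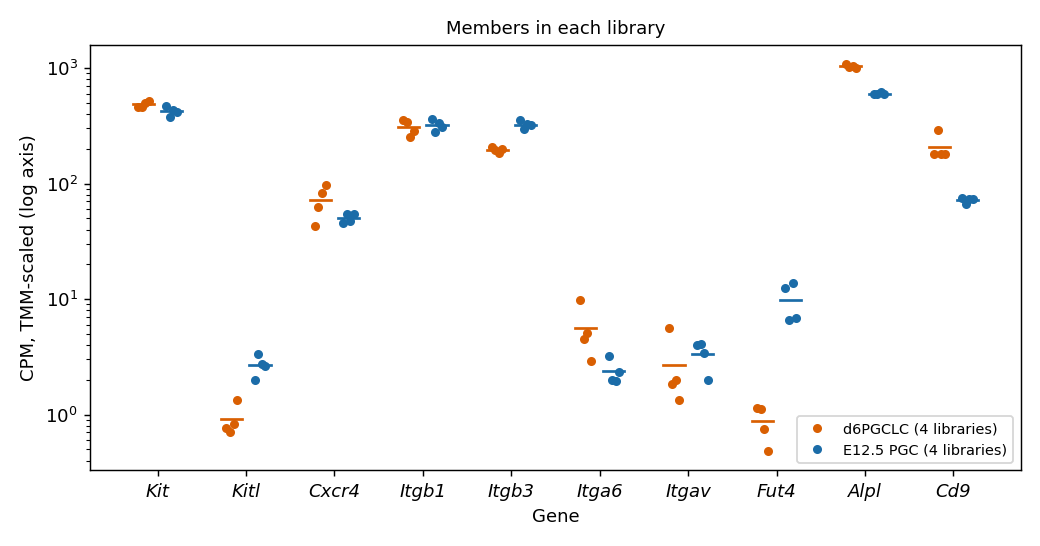
CPM (log axis) of the 10 members in each of the 4 d6PGCLC (orange) and 4 E12.5 PGC (blue) libraries, with bars at the group means. The groups are apart for Kitl, Itgb3, Fut4, Alpl and Cd9 and overlap for the other 5 genes.

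Per kilobase of the counted exons (RPKM), the set spanned a wide range of levels that was similar in order in both cell types. In d6PGCLCs Alpl led with 342 ± 11.9 RPKM (SD, n = 4), followed by Kit with 142 ± 7.48, Cd9 with 138 ± 36.7 and Itgb1 with 67.4 ± 10.2. The ranges of Kit and Cd9 overlapped, as did those of the next pair, Cxcr4 at 37.7 ± 12.3 and Itgb3 at 30.8 ± 1.58 RPKM. Itga6 (3.29), Itgav (0.910), Fut4 (0.236) and Kitl (0.159 RPKM) formed a low end in which Itga6 overlapped Itgav and Fut4 overlapped Kitl. In E12.5 PGCs Alpl (198 ± 3.35 RPKM) and Kit (125 ± 11.1) were again the highest and Kitl (0.469 ± 0.0983) the lowest. There Itgb3, at 50.8 ± 3.70 RPKM, stood beside Cd9 at 47.8 ± 2.35 with overlapping ranges, above Cxcr4 at 26.5 ± 2.40. The low end in PGCs ran from Fut4 at 2.66 ± 1.00 over Itga6 at 1.41 to Itgav at 1.14 RPKM, each overlapping its neighbour. For Itga6 and Itgav the counted exons span only 39.3% and 42.0% of the longest coding transcript in GENCODE, and for Kit 64.9%, so the levels of these genes against others depend on the isoform that was counted.

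The survival pair differed in its ligand, while the receptor was abundant on both sides. Kit (chr5:75574916-75656722, plus strand, GRCm38) had 461.7, 463.1, 496.1 and 513.4 CPM in d6PGCLC replicates 1 to 4 and 466.4, 375.7, 436.1 and 418.9 CPM in E12.5 PGC replicates 1 to 4. The groups overlapped through PGC replicate 1, and PGC replicate 2 was the lowest library. The log2 fold change of d6PGCLC over PGC was 0.19 ± 0.09 (SE) with an adjusted p of 0.113 (edgeR, unadjusted p = 0.0411), and its 95% interval reached from 0.02 to 0.36. With the replicate number as a block, Kit passed at the same log2 fold change of 0.19 (adjusted p = 0.0439, edgeR), though whether the numbers pair the samples is not known.

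Kitl (chr10:100015630-100100416, plus strand), whose product is also a factor added to the PGCLC medium, had few counts in d6PGCLCs. Its counts were 6, 7, 10 and 11 in d6PGCLC replicates 1 to 4 and 16, 32, 30 and 29 in PGC replicates 1 to 4, which correspond to 0.766, 0.713, 0.830 and 1.33 CPM against 2.00, 3.37, 2.77 and 2.62 CPM. Every PGC library was above every d6PGCLC library. Kitl was 2.96-fold lower in d6PGCLCs (log2 fold change -1.57 ± 0.36 SE, adjusted p = 0.00109, edgeR). KIT ligand is known from somatic cells of the gonad, so markers of those cells were counted too. Of 9 measured markers of gonadal supporting cells, 6 were lower in d6PGCLCs and 0 higher, beside 31.5% of all genes called in either direction. Their summed level was 2.66 to 8.42 CPM in d6PGCLCs and 12.6 to 21.99 CPM in PGCs, and 7 of 9 stayed at 3 counts or fewer in each d6PGCLC library, against 1 of 9 in PGCs. Their part in the Kitl difference was not tested, and in bulk libraries fewer cells of a type and less RNA per cell cannot be told apart.

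Within a library, the ratio of Kit to Kitl does not depend on how libraries are scaled. On the log2 scale, per exonic length and with 0.5 added to each count, it was 9.87, 9.996, 9.90 and 9.28 in the d6PGCLC libraries and 8.57, 7.53, 8.03 and 8.05 in the PGC libraries. The mean ratio was 1.72 higher in d6PGCLCs, with no overlap between groups (exact permutation of the libraries, two-sided, p = 0.0286, which is the lowest value possible with 70 splits of 4 against 4, and 0.0286 after Benjamini-Hochberg adjustment over the 4 ratios examined).

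Downstream of KIT, 3 of 20 signalling genes were higher and 5 lower in d6PGCLCs, so 8 of the 17 with a mean of at least 1 CPM were called, beside 53.6% of all such genes. The higher count was 5 without d6PGCLC replicate 1 and with an offset for exonic length, and the lower count was 3 without PGC replicate 1. Src, a kinase recruited to the active receptor, had 14.9 ± 6.55 CPM in d6PGCLCs (SD, n = 4) and 2.63 ± 0.18 in PGCs, a log2 fold change of 2.49 (adjusted p = 1.69e-07, edgeR). Adam17, a protease that sheds surface proteins, KIT and its ligand among them, was higher by 0.57 on the log2 scale, and Pik3cd, a catalytic subunit of phosphoinositide 3-kinase, by 0.31. Cbl, a ubiquitin ligase that removes active KIT, was lower with a log2 fold change of -0.99, Sos1, the exchange factor that loads RAS, with -0.83, and Fyn, another SRC family kinase, with -0.63. Of the 7 receptors for the other factors of the first PGCLC medium, 1 was higher (2 without d6PGCLC replicate 3 or 4, and 3 with an offset for exonic length) and 2 lower, and 31.5% of all genes were called: Il6st, the shared chain of the LIF receptor, had a log2 fold change of 0.39, and the BMP receptors Acvr1 and Bmpr1a had -1.17 and -0.36.

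The homing receptor Cxcr4 (chr1:128588199-128592293, minus strand) had a modest difference whose call rested on single libraries. It had 43.3, 62.6, 83.3 and 96.5 CPM in d6PGCLC replicates 1 to 4 and 45.7, 54.1, 46.9 and 54.2 CPM in PGC replicates 1 to 4. The d6PGCLC libraries spread over a 23.4 CPM SD against 4.55 CPM in PGCs, and d6PGCLC replicate 1 was the lowest of all 8 while replicates 2, 3 and 4 were above every PGC library. The fold was 1.42 (log2 0.51 ± 0.17 SE, adjusted p = 0.0236, edgeR). The adjusted p (edgeR) rose to 0.0887 without d6PGCLC replicate 3 (log2 fold change 0.42) and 0.141 without d6PGCLC replicate 4 (0.33). It was 0.0531 without PGC replicate 1 (log2 fold change 0.47) and 0.0612 without PGC replicate 3 (0.48). Without d6PGCLC replicate 1 the log2 fold change was 0.68, and over the 8 libraries left out in turn it kept its sign.

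CXCL12, the ligand of CXCR4, had 2.81 ± 0.885 CPM in d6PGCLCs and 1.14 ± 0.42 CPM in PGCs, a log2 fold change of 1.30 (Cxcl12, adjusted p = 0.00673, edgeR). Ackr3, a scavenger receptor for the same chemokine, did not pass with 2.39 ± 1.27 against 1.76 ± 0.842 CPM (adjusted p = 0.482, edgeR). Of 19 measured genes of the chemokine axis, ligand and signalling genes included and Cxcr4 not, 7 were higher and 1 lower, beside 31.5% of all genes called in either direction. Of the 9 with a mean of at least 1 CPM, 6 were higher and 1 lower, beside 28.1% and 25.6% of all genes at that mean, and the difference of the list from other genes was not tested. Arrb1, a β-arrestin that takes receptors off the surface, had 20.4 against 4.31 CPM (log2 fold change 2.26). Gnai1, a G protein subunit that couples chemokine receptors, and Grk6, a kinase that desensitises them, each had a log2 fold change of 0.78. Endothelium also uses CXCR4, and the 8 endothelial markers summed to 76.5 to 100 CPM in d6PGCLCs and 40.4 to 67.2 CPM in PGCs. Of these markers 2 were higher and 0 lower, where 31.5% of all genes were called. They did not move together, with log2 fold changes from -3.69 (Emcn, which did not pass) to 2.03 (Egfl7). The part of these markers in the Cxcr4 difference was not tested.

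**Figure D2:**
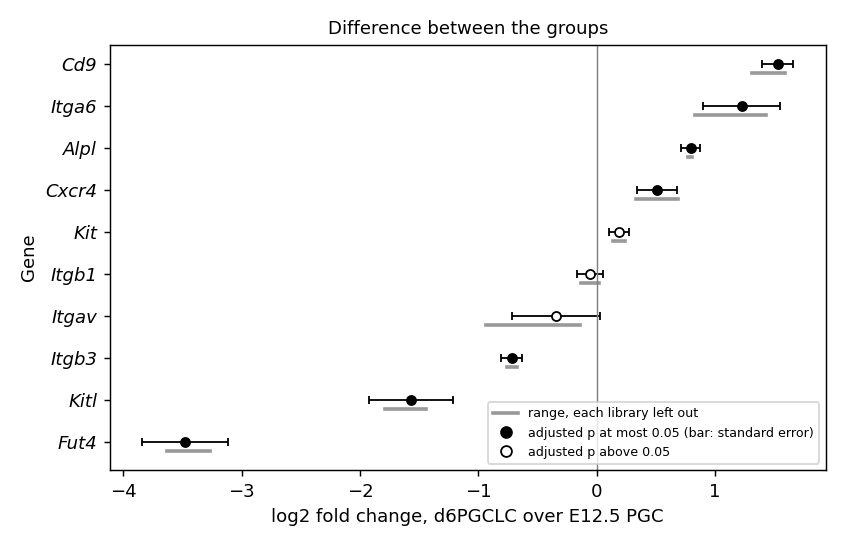
The log2 fold change of d6PGCLC over E12.5 PGC (horizontal axis) for the 10 members, with the standard error as a black bar, filled points for an adjusted p of at most 0.05, and grey bars for the range when each of the 8 libraries was left out in turn. The range of Itgb1 crosses 0, that of Itgav runs from -0.94 to -0.14, and those of the other 8 members stay on 1 side.

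Among the integrins the β3 chain was lower in d6PGCLCs, while the common β1 chain did not pass the test. Itgb1 (chr8:128685654-128733200, plus strand), the β chain of the laminin and fibronectin receptors, had 355.2, 337.7, 254.2 and 286.1 CPM in d6PGCLC replicates 1 to 4 and 363.4, 278.3, 332.5 and 309.1 CPM in PGC replicates 1 to 4. The ranges overlapped almost entirely, and the log2 fold change was -0.06 with a 95% interval from -0.27 to 0.15 (adjusted p = 0.883, edgeR).

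Itgb3 (chr11:104608000-104670476, plus strand), which pairs with αv, had 208, 196, 184 and 199 CPM in d6PGCLC replicates 1 to 4 and 353, 295, 326 and 322 CPM in PGC replicates 1 to 4. All 4 PGC libraries were above all 4 d6PGCLC libraries. It was 1.65-fold lower in d6PGCLCs (log2 fold change -0.72 ± 0.09 SE, adjusted p = 9.08e-07, edgeR). Integrin β3 protein was part of the gate for the PGCs and, by the labels, not for the d6PGCLCs, so the gate and the cell type cannot be told apart for this gene.

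Within each library, Itgb3 was below Itgb1 in both groups, and the gap was wider in d6PGCLCs. The log2 ratio of Itgb3 to Itgb1, per exonic length, was -1.25, -1.26, -0.95 and -1.01 in the d6PGCLC libraries and -0.52, -0.40, -0.51 and -0.42 in the PGC libraries. The difference was -0.66 (two-sided exact permutation test, p = 0.0286, adjusted 0.0286). As a share of the summed RPKM of all β subunits measured, Itgb1 was 60.9 ± 1.35% in d6PGCLCs and 54.2 ± 0.860% in PGCs (SD, n = 4). Itgb3 was 28.2 ± 2.58% and 39.3 ± 1.15%, and together they were most of the β chain RNA in both cell types.

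Of the α chains, Itga6 (chr2:71745616-71858416, plus strand), a laminin receptor chain that pairs with β1, was higher in d6PGCLCs at a low level. It had 9.83, 4.48, 5.06 and 2.91 CPM in d6PGCLC replicates 1 to 4 and 3.24, 2.00, 1.94 and 2.35 CPM in PGC replicates 1 to 4. Replicate 1 was the highest library of each group, and d6PGCLC replicate 4 lay below PGC replicate 1, so the groups overlapped. The fold was 2.34 (log2 1.22 ± 0.33 SE, adjusted p = 0.0052, edgeR), and the log2 fold change lay between 0.83 and 1.43 when each library was left out in turn. Several other annotated genes overlap the Itga6 locus, and reads may be shared with them.

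Itgav (chr2:83724397-83806916, plus strand), the αv chain that partners β3, had 5.62, 1.83, 1.99 and 1.33 CPM in d6PGCLC replicates 1 to 4 and 3.99, 4.10, 3.41 and 1.99 CPM in PGC replicates 1 to 4. One d6PGCLC library, replicate 1, was the highest of all 8, and the other 3, at 1.99 CPM or less, were at or under the level of the lowest PGC library. The log2 fold change was -0.34 ± 0.37 SE (adjusted p = 0.608, edgeR), with a 95% interval from -1.08 to 0.39. Without d6PGCLC replicate 1 it was -0.94 with an adjusted p of 0.0267 (edgeR).

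The balance of the α chains was counted within libraries as well. The log2 ratio of Itgav to Itga6 was -1.61, -2.07, -2.13 and -1.90 in the d6PGCLC libraries and -0.51, 0.21, 0.00 and -1.04 in the PGC libraries. It was lower by a mean of -1.59 in d6PGCLCs with no overlap (two-sided exact permutation test, p = 0.0286, adjusted 0.0286). Itgav made up 4.67 ± 2.24% of the summed α chain RPKM in d6PGCLCs and 10.5 ± 2.29% in PGCs (SD, n = 4), while Itga6 made up 17.4 ± 5.71% and 13.1 ± 2.69%.

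Larger log2 fold changes than those of the member chains were found among other α chains and in the β chain Itgb4. Itgb4, picked after its values were seen, had 2.41 and was the 1 other subunit called higher by at least 2. Of 22 other integrin subunits measured, 4 were higher and 2 lower in d6PGCLCs, beside 31.5% of all genes called, and all 6 were among the 12 with a mean of at least 1 CPM, where 53.6% were called. Without PGC replicate 3, or without PGC replicate 4, 1 was lower. In all, 6 of 22 had at most 3 counts in every PGC library. Itga5, the fibronectin receptor chain, had 35.1 ± 8.77 CPM in d6PGCLCs and 9.74 ± 2.12 in PGCs (log2 fold change 1.84, adjusted p = 1.55e-07, edgeR). It was 34.8% of the α chain RPKM in d6PGCLCs and 16.4% in PGCs. Itga3, a laminin receptor chain, had 25.0 ± 4.59 against 7.91 ± 1.95 CPM (log2 fold change 1.67). Itgb5, another β partner of αv, was higher by 0.78 on the log2 scale (adjusted p = 0.0231, edgeR). Lower were Itga1, a collagen receptor chain, with 0.906 against 4.30 CPM (log2 fold change -2.25), and Itgal, an α chain known from leukocytes, with 3.29 against 5.56 CPM (log2 fold change -0.75). Itgb7 did not pass, with 17.1 against 14.0 CPM.

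**Figure D3:**
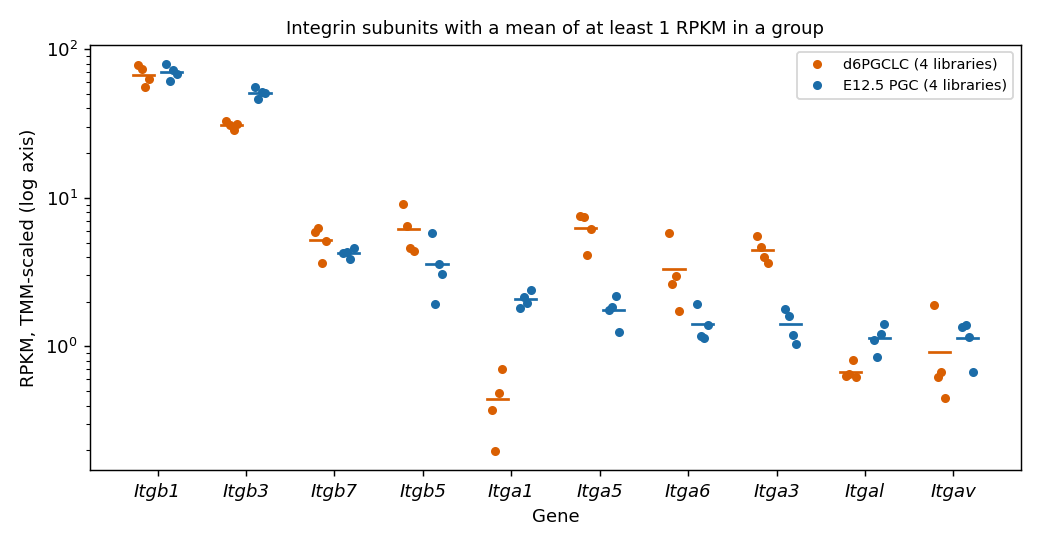
RPKM (log axis) of the 10 integrin subunits with a mean of at least 1 RPKM in either group, β chains on the left and α chains on the right, in 4 d6PGCLC (orange) and 4 E12.5 PGC (blue) libraries with bars at the means. Itgb1 and Itgb3 are the highest subunits in both groups, and Itga5 and Itga3 are apart between the groups.

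The proteins on either side of the integrins were also measured. Of 11 matrix ligands, 7 were higher and 2 lower in d6PGCLCs, and all 9 were among the 10 with a mean of at least 1 CPM, where 28.1% and 25.6% of all genes were higher and lower. Lama1 and Lama5, laminin α chains that α6β1 and α3β1 can bind, had log2 fold changes of 2.89 and 2.51, with 18.3 against 2.51 CPM and 23.2 against 4.05 CPM. Spp1, the αvβ3 ligand osteopontin, had 32.0 against 8.11 CPM (log2 fold change 1.99). Tgfb1, whose latent form αv integrins activate, was lower with 10.8 against 29.7 CPM (log2 fold change -1.45), as was the laminin chain Lamb1 (-0.64). Of 20 adaptors inside the cell, 9 were higher and 2 lower (4 lower without d6PGCLC replicate 4). Among the 19 with a mean of at least 1 CPM, 8 were higher and 2 lower, beside 53.6% of all such genes called. The focal adhesion scaffolds Pxn and Bcar1 had log2 fold changes of 1.70 and 0.82, and Parva, a partner of the protein named integrin-linked kinase, had 1.07. Tln2, a talin that activates integrins, had -0.86, and Ilk, the gene of that partner protein, had -0.39.

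The enzymes of the SSEA1 sugar went in opposite directions. Fut4 (chr9:14748320-14752393, minus strand), an α1,3-fucosyltransferase encoded in a single exon, had 9, 11, 9 and 4 counts in d6PGCLC replicates 1 to 4 and 99, 62, 149 and 76 in PGC replicates 1 to 4. In CPM this was 1.15, 1.12, 0.747 and 0.485 against 12.4, 6.52, 13.7 and 6.86. Every PGC library was more than 5-fold above every d6PGCLC library, and among the PGCs replicates 1 and 3 were higher than replicates 2 and 4. The log2 fold change was -3.48 ± 0.36 SE (adjusted p = 3.24e-08, edgeR), and it lay between -3.63 and -3.27 when each library was left out. SSEA1 was part of the gate for the PGCs and, by the labels, not for the d6PGCLCs, so here too the gate and the cell type cannot be told apart.

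Fut9, a fucosyltransferase known to make SSEA1 in mouse stem and germ cells, was 81.2 ± 17.1 CPM in d6PGCLCs and 14.4 ± 3.31 CPM in PGCs, a log2 fold change of 2.49 (adjusted p = 1.43e-10, edgeR). Per exonic length, the log2 ratio of Fut4 to Fut9 was -4.74, -4.34, -4.82 and -5.27 in the d6PGCLC libraries and 1.98, 0.27, 1.74 and 0.48 in the PGC libraries. Fut9 was therefore the higher of the pair in every d6PGCLC library and Fut4 in every PGC library, a mean difference of -5.91 (two-sided exact permutation test, p = 0.0286, adjusted 0.0286). Both genes were already apart between the groups in opposite directions, so this p-value follows from them and is no separate support.

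Of 14 other transferases and sugar-nucleotide genes of this route, 4 were higher and 5 lower in d6PGCLCs. These 9 were among the 11 with a mean of at least 1 CPM, where 28.1% of all genes were higher and 25.6% lower. B3gnt2, which extends the lactosamine chains that carry SSEA1, and Gfus, which makes the fucose donor, were higher by 0.50 and 0.46 on the log2 scale. Fut11, Fut8 (the enzyme of core fucose) and Fut10 were lower with log2 fold changes of -1.10, -0.72 and -0.64. B3gnt5, which starts the lactosamine chain on lipids and was picked after its values were seen, had 1.40 against 8.18 CPM (log2 fold change -2.59, adjusted p = 3.47e-07, edgeR).

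**Figure D4:**
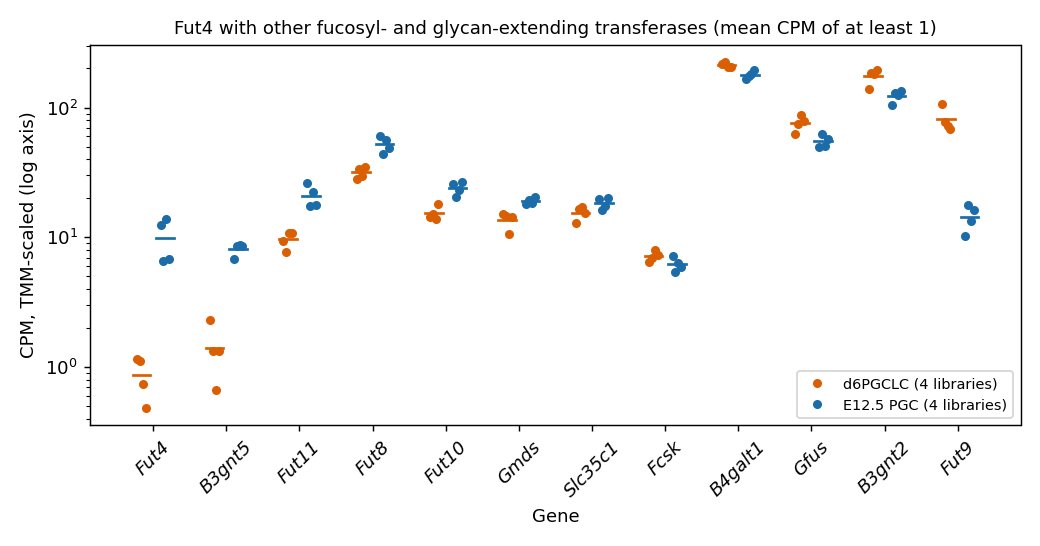
CPM (log axis) of Fut4 and the 11 other transferases and fucose-route genes with a mean of at least 1 CPM, ordered by log2 fold change after Fut4, in 4 d6PGCLC (orange) and 4 E12.5 PGC (blue) libraries with bars at the means. Fut4 and Fut9 are apart between the groups in opposite directions.

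Alpl (chr4:137741733-137796384, minus strand), the most abundant member, was also the most even. It had 1084, 1016, 1046 and 1002 CPM in d6PGCLC replicates 1 to 4 and 593.9, 594.0, 613.8 and 592.8 CPM in PGC replicates 1 to 4. The lowest d6PGCLC library was far above the highest PGC library. It was 1.73-fold higher in d6PGCLCs (log2 fold change 0.79 ± 0.08 SE, adjusted p = 4.58e-08, edgeR). The 3 other alkaline phosphatases measured had at most 3 counts in every library. Alppl2, the form known from embryos and pluripotent cells, had a mean of 0.147 CPM in d6PGCLCs and 0.0231 CPM in PGCs, both under the level of 3 counts, so Alpl gave nearly all alkaline phosphatase RNA in both groups.

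Cd9 (chr6:125460266-125494791, minus strand) was higher in d6PGCLCs in every library. It had 181.6, 291.5, 181.1 and 178.6 CPM in d6PGCLC replicates 1 to 4 and 74.5, 66.9, 73.5 and 74.0 CPM in PGC replicates 1 to 4. Within each group 3 libraries were nearly equal and replicate 2 stood apart, upwards in d6PGCLCs and downwards in PGCs. The log2 fold change was 1.53 ± 0.13 SE (adjusted p = 8.06e-09, edgeR), and without d6PGCLC replicate 2 it was 1.32. An antisense gene and another transcript of the opposite strand overlap the locus, and whether counting used the strand is not given in the sources used here.

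The tetraspanin family was counted beside Cd9. Of 25 other tetraspanins and CD9 partners, 12 were higher and 4 lower, and the median over those with a mean of at least 1 CPM was 0.32 on the log2 scale against 0.01 over all such genes, of which 28.1% were higher and 25.6% lower. The difference of the list from other genes was not tested. Cd63, a tetraspanin of late endosomes, had 17.5 ± 2.92 against 3.13 ± 0.753 CPM (log2 fold change 2.48, adjusted p = 6.42e-09, edgeR). Tspan9 had 117 against 32.4 CPM and Tspan6 24.7 against 8.25 CPM (log2 fold changes 1.85 and 1.58). Lower were Tspan5, a regulator of the ADAM10 protease (log2 fold change -1.22), Hbegf, a growth factor precursor that binds CD9 (-0.62), and Igsf8, a direct CD9 partner also known as EWI-2 (-0.59).

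**Figure D5:**
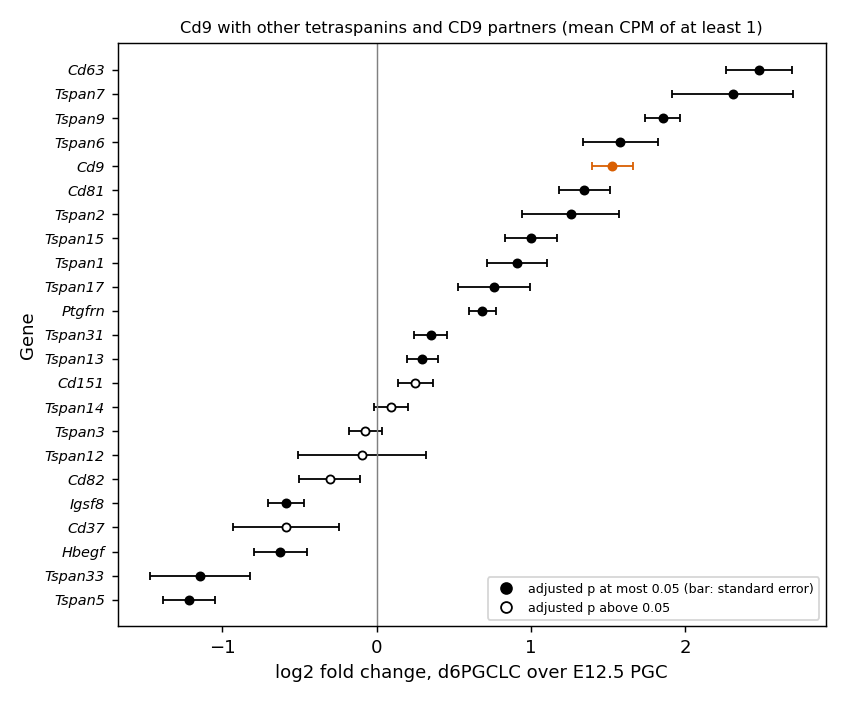
The log2 fold change of d6PGCLC over E12.5 PGC with its standard error for Cd9 (orange) and the 22 other tetraspanins and CD9 partners with a mean of at least 1 CPM, filled points for an adjusted p of at most 0.05. Cd9 stands at 1.53, next below Tspan6 at 1.58.

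Other surface markers of PGCs and stem cells give the setting of the 10 members. Of 19 such genes, 6 were higher and 3 lower in d6PGCLCs, all 9 of them among the 14 with a mean of at least 1 CPM, where 53.6% of all genes were called. Without PGC replicate 4 the lower count was 5. Ifitm3 and Ifitm1, interferon-induced surface proteins known as early PGC markers, had 654 against 293 CPM and 902 against 469 CPM (log2 fold changes 1.16 and 0.94), and Bsg, the glycoprotein basigin, had a log2 fold change of 0.81. Cd47, the signal that spares cells from phagocytosis, had 3.93 against 14.6 CPM (log2 fold change -1.92), and Prom1 and Cd24a had -1.19 and -1.08.

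Promoter sequence was looked at for 8 of 10 members, since Itga6 and Itgb3 had no entry. The sequences are RefSeq's on GRCm38.p6, and the 200 bases before the annotated start were searched on both strands for the GC box GGGCGG, the AP-2 motif GCCNNNGGC, the E-box CACGTG and the octamer half-site ATGCAAA. The GC box was in 6 of 8 members and in 31.0% of 32851 promoters, and the AP-2 motif was in 3 (Kit, Fut4 and Alpl) and in 11.8% of promoters. The E-box and the octamer half-site were in none of the 8 and in 5.26% and 3.28% of promoters. The members held 11 to 20 CpG dinucleotides in these bases against a median of 5. The match in Fut4 and the GC boxes of Kitl lie after the start of the gene as GENCODE gives it. A match here is only a run of letters.

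Upstream stretches of 4 members are shown, those of the higher members Alpl, Cd9 and Cxcr4 and of Kit, which did not pass, with GC boxes and AP-2 motifs of either strand in capitals, which merge where they touch or overlap in Alpl. They read 5′ to 3′ along each gene and end before the start of the gene in both RefSeq and GENCODE: Alpl chr4:137796385-137796584 (minus strand), Cd9 chr6:125494792-125494960 (minus strand), Cxcr4 chr1:128592300-128592499 (minus strand) and Kit chr5:75574787-75574915 (plus strand).
Alpl: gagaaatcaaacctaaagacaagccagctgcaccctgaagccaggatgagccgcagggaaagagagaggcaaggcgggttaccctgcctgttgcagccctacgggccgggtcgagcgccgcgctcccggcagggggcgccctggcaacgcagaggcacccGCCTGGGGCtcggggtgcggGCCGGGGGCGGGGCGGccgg
Cd9: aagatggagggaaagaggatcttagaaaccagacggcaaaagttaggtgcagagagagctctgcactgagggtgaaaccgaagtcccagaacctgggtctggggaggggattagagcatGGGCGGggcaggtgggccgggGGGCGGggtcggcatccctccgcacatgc
Cxcr4: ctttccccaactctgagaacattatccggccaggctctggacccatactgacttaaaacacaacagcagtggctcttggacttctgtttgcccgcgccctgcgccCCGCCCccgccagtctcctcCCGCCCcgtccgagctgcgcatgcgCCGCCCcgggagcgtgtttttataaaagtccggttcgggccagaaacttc
Kit: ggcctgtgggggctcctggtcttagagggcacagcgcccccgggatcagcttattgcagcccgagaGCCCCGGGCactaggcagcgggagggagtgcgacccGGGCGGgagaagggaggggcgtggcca
The capitals cluster in the last part of the Alpl stretch and occur as separate GC boxes in Cd9 and Cxcr4, those of Cxcr4 all on the opposite strand. Kit has 1 AP-2 motif and 1 GC box.

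The libraries held 7991437 to 12024841 counts each. Of 10 germ cell markers, all with a mean of at least 1 CPM in both groups, 6 were higher and 3 lower in d6PGCLCs, beside 28.1% and 25.6% of all genes at that mean. The lower ones were the later germ cell genes Dazl (37.7 against 1262 CPM), Ddx4 (35.5 against 760.4) and Mael (7.02 against 96.5), with log2 fold changes of -5.07, -4.42 and -3.80. The summed level of all 10 was 3922 to 5155 CPM in d6PGCLCs and 4409 to 4845 CPM in PGCs. The stroma markers summed to 3.82 to 30.4 CPM in d6PGCLCs and 2.40 to 7.68 CPM in PGCs (2 of 10 higher, 2 lower), blood markers to 3.24 to 7.02 and 2.21 to 5.16 CPM (1 of 9 higher, 1 lower), and mesoderm and endoderm markers to 1.66 to 2.68 and 10.9 to 15.7 CPM (0 of 7 higher, 6 lower), beside 31.5% of all genes called in either direction. PGC replicate 4, labelled female, held 99 counts of Y-linked genes, while the other 7 libraries held 0, and PGC replicate 2 was the highest PGC library for 17 of 17 genes of the response to tissue dissociation. Without both of these libraries, a choice made after seeing them, 4 members were again higher and 3 lower, with log2 fold changes of -3.89 for Fut4, 1.49 for Cd9, 0.78 for Alpl and -0.79 for Itgb3, and adjusted p-values of 0.0207 for Kitl, 0.0199 for Cxcr4 and 0.04 for Itga6 (edgeR).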

How the data were processed

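Bulk RNA of sorted cells was sequenced as stranded mRNA libraries in single reads. The deposited values are raw read counts per gene, with the exonic length of the counted isoform, another deposited value; the authors aligned reads with STAR to GRCm38, took 1 isoform per gene at random and counted uniquely mapped reads. Whether counting used the strand is not given in the sources used here.

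From the counts of all 21950 genes, edgeR 4.0.16 (R 4.3.3) fitted cell type as the only term with TMM scaling and a prior count of 0.125, and the quasi-likelihood test was adjusted over all genes; the study itself used a likelihood test. CPM and RPKM were computed from these counts. Of the gene identifiers, 21907 were matched to a RefSeq symbol. Log2 ratios within libraries were compared by exact permutation. They use the same counts as the fits and give no independent support. The 95% intervals are log2 fold changes with normal limits. Replicates are independent experiments by the labels, and counts per library differed from each other beyond sampling noise. In data simulated from these libraries, 50 of 66 genes changed by 0.75 on the log2 scale were called, 65 of 67 changed by 1.5 and 67 of 67 changed by 3. Beside these right calls, 27 of 21750 unchanged genes were called. Far fewer genes were changed there than the 6919 called in the real data, so these rates need not hold for the real comparison.

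The members and lists were chosen with earlier results of these data known. Named are all members, Fut9, Cxcl12, Ackr3 and Alppl2, up to 3 genes per list and direction with the largest changes among those called with a mean of at least 5 CPM, and integrin subunits of at least 1 RPKM. Alternatives were DESeq2 1.42.0, the likelihood ratio test, other scalings, filters, prior count and threshold, a length offset, a replicate block and leaving out libraries. Integrin β3 and SSEA1 levels on the cells were not used here.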

Additional observations from a re-analysis of the deposited data

Results flagged for a closer look

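Among 28 groups of 4 libraries examined, 4 held a library that stood far from the other 3, where chance gives about 1 in 20 groups. Cd9 gave a pair of them: d6PGCLC replicate 2 had 291 CPM when the other 3 had 178.6 to 181.6 CPM, and PGC replicate 2 had 66.9 CPM when the other 3 had 73.5 to 74.5 CPM. Itgav in d6PGCLC replicate 1 had 5.62 CPM when the other 3 had 1.33 to 1.99 CPM. Alpl in PGC replicate 3 had 613.8 CPM when the other 3 had 592.8 to 594.0 CPM, a gap that is small against its difference between the groups.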

How the results depend on the processing

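The calls of Kitl, Itga6, Itgb3, Fut4, Alpl and Cd9 kept their direction and their side of the threshold under every alternative run. Cxcr4, with a log2 fold change of 0.51, did not pass at an adjusted p of at most 0.01, and leaving out each library in turn gave 0.33 to 0.68. The same range was -0.94 to -0.14 for Itgav, which passed without d6PGCLC replicate 1, and -0.13 to 0.0222 for Itgb1, whose sign turned without d6PGCLC replicate 3 (0.0222) or PGC replicate 1 (0.00701). The cause was not tested. Whether the replicate numbers pair the samples is not known. Deviations of same-numbered libraries correlated at 0.27, 0.10, -0.02 and 0.04, and those of differently numbered libraries at -0.18 to 0.11. With the replicate block Kit passed at a log2 fold change of 0.19 (adjusted p = 0.0439, edgeR). That block called 7270 genes in place of 6919 (edgeR). Leaving out a library leaves 3 against 4, where the exact test of the ratios cannot give less than 0.0571. Of the counts over the gene lists, 16 moved by more than 1.5 times and 384 did not; without PGC replicates 2 and 4 together, a choice made after seeing the data, 43 list genes were higher and 24 lower in place of 53 and 26. Scaling moved the median over genes with a mean of at least 1 CPM by less than 0.1 on the log2 scale. Counting limits Kitl and Fut4 in d6PGCLCs, with 4 to 11 counts per library.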
